A study of Mus musculus with 8 samples.

Results

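The 9 genes described here make, move and use aspartate and the amino acids next to it: Got1, Got2, Asns, Slc25a12, Slc25a13, Ass1, Asl, Glud1 and Glul. They were taken by symbol from a table of read counts for 43430 mouse genes, and all 9 were among the 12689 genes that passed a filter on low counts. The mice were C57BL/6 and 15 days old, and the cells counted were endothelial cells of the lung, sorted by flow cytometry for the surface protein CD31. Knockout (KO) mice had lost QPC, a subunit of mitochondrial complex III, read here as the protein encoded by Uqcrq, in their endothelial cells, and wild-type (WT) mice were the controls. The labels give tamoxifen on postnatal days 0 to 4, the drug that starts the deletion, for the libraries of both genotypes, and do not name the Cre line. Each genotype had 4 libraries, and nothing in the labels says that these came from separate animals, so the p-values reflect only how far these samples vary, and part of that variation may be technical.

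Aspartate is made when an aspartate aminotransferase moves the amino group of glutamate onto oxaloacetate. Got2 encodes the enzyme of the mitochondrial matrix and Got1 that of the cytosol, and the carriers encoded by Slc25a12 and Slc25a13 bring aspartate out of the mitochondrion in exchange for glutamate. Oxaloacetate can only be formed from malate while NAD+ is regenerated, which is why respiration and aspartate supply are known to be coupled in proliferating cells. Asparagine synthetase (Asns) turns aspartate into asparagine with glutamine as nitrogen donor. Argininosuccinate synthase (Ass1) joins aspartate to citrulline, and argininosuccinate lyase (Asl) splits the product into arginine and fumarate, the steps by which endothelial cells can recycle citrulline into the substrate of nitric oxide synthase.

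The libraries held between 6407924 (WT replicate 3) and 13981329 (KO replicate 4) counts. Levels are CPM, read counts scaled to library size after TMM normalisation, and a value after ± is the SD over the 4 libraries of a genotype (n = 4). Uqcrq lay at 26.3, 24.5, 26.8 and 31.5 CPM in WT replicates 1 to 4 and at 1.59, 15.6, 9.57 and 14.0 CPM in KO replicates 1 to 4, with no overlap. By an exact two-sided permutation test these levels had p = 0.0286, which is the lowest value possible with 4 libraries a group. The edgeR fit described below put the log2 fold change of Uqcrq at -1.42 (SE 0.53) and did not call it (adjusted p = 0.179, and 0.0522 to 0.333 over 23 alternatives). WT replicate 3 stood apart on the first principal component and KO replicate 1 on the second, so results are also given without these libraries. Endothelial marker genes summed to 13183 to 15470 CPM in WT and 11387 to 14801 CPM in KO. By the same fit 2 of these 8 markers fell in KO and 0 rose, where 176 of all 12689 genes tested were called lower and 285 higher. They were Tek, from 941 ± 134 to 583 ± 64.2 CPM (edgeR adjusted p = 0.00762), and Erg, from 314 ± 46.1 to 197 ± 32.1 CPM (edgeR adjusted p = 0.0231). The part of Tek and Erg in the results below was not tested. Alveolar type 2 epithelial markers were also present, with all 8 listed genes detected and sums of 3805 to 21996 CPM in WT and 3644 to 16005 CPM in KO. Of 8 macrophage markers 4 averaged under 1 CPM and Chil3 had no count in any library, but the sums, mostly Lyz2, reached 2034 CPM in WT and 1497 CPM in KO. Within each genotype these sums peaked in the same library as the type 2 sums, WT replicate 1 and KO replicate 3. Both were lowest in WT replicate 2 and KO replicate 1. Which cells gave the Lyz2 reads was not tested. Fibroblast markers summed to 270 to 1322 CPM in WT and 255 to 1273 CPM in KO. In bulk samples, fewer cells of a type and less RNA per cell cannot be told apart.

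The stretches below are shown because the promoters of Asns and Got1, the members with the largest rises in KO, share a motif. RefSeq promoters of GRCm38.p6 were held for 8 of the 9 genes, Asl being the one without an entry, and the 250 bases before the start were searched on both strands. The letters TGATGNAA, those of the composite element bound by ATF4 with C/EBP proteins, were found in Asns and Got1 and in none of the other 6. They occur in 3.45% of all 32851 promoters in the table and in 1.92% of the 12506 promoters of genes tested. The E-box CACGTG, which reads the same on both strands and is bound by MYC among others, was found in Ass1 and Slc25a13, against 6.02% of all promoters and 8.13% of those of genes tested. No promoter of a member held both, so the motifs did not overlap. Each 30-base stretch is printed 5′ to 3′ in the direction of the gene with the match in capitals.
Asns: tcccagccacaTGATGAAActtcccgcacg
Got1: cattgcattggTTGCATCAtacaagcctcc
Ass1: cgcgcccgtcccCACGTGtcccaggttcct
Slc25a13: cacagtctgagtCACGTGtcctggcccctc

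The Asns stretch lies on the minus strand at chr6:7693214-7693243 and overlaps an exon of 1 of 7 GENCODE transcripts. Its match is 23 to 16 bases before the RefSeq start. The Got1 stretch lies on the minus strand at chr19:43524689-43524718, outside any exon of that gene. Its match is on the strand opposite to the gene, 102 to 95 bases before the start. The Ass1 stretch is on the plus strand at chr2:31470222-31470251 and overlaps an exon of 1 of 4 transcripts. That of Slc25a13 is on the minus strand at chr6:6217281-6217310, outside its exons. A match is a description of the letters and was not tested for binding. Slc25a13 carries the E-box and did not pass the test below, so a match in this window did not go with a call in every member.

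The comparison of KO with WT asks how transcripts for aspartate supply and use differ after loss of the complex III subunit. Got1, Asns and Ass1 were called higher in KO, 3 of 9 members, and 0 were called lower, by the quasi-likelihood test of edgeR with Benjamini-Hochberg adjustment over all genes at 0.05. Over all 12689 genes tested 3.63% were called in either direction and 2.25% higher. At an unadjusted p under 0.05 the edgeR test had 4 members higher and 0 lower, where 15.2% of all genes reached that p in either direction and 8.69% did so with a higher KO level. DESeq2 called 4 higher and 0 lower, adding Got2, against 3.29% of all genes called higher by that tool. With limma voom 2 were called higher and 0 lower, without Got1, against 2.66% of all genes called higher. The median log2 fold change of the 9 genes was 0.28, against 0.01 over all genes tested. For 4 members, the 3 named and Got2, all KO libraries lay above all WT libraries, and 11.6% of all genes were separated in one direction or the other. These shares describe a list of 9 genes that was put together with earlier results of these data known.

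**Figure D1:**
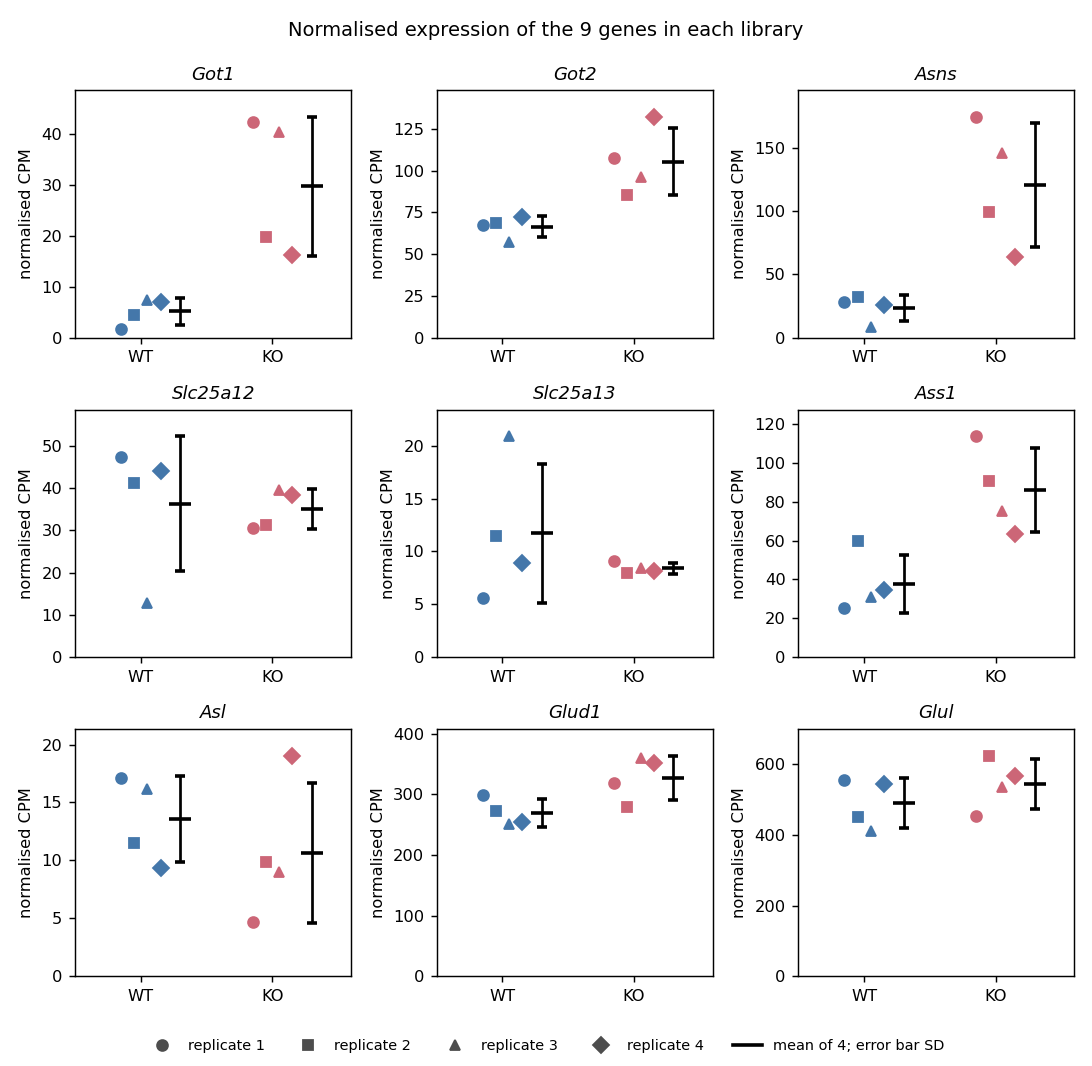
Normalised expression (CPM, linear axis from 0) of the 9 genes in each of the 4 WT and 4 KO libraries, 1 panel per gene, with marker shape for the replicate number and the mean ± SD to the right of the points. Got1, Got2, Asns and Ass1 have all KO points above all WT points, and the points of the other 5 genes overlap.

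Got1, the cytosolic aspartate aminotransferase (ENSMUSG00000025190, chromosome 19, 43499752 to 43524605, minus strand, GRCm38), had 1.67, 4.40, 7.47 and 7.08 CPM in WT replicates 1 to 4. It had 42.5, 19.7, 40.5 and 16.2 CPM in KO replicates 1 to 4. Every KO library was above every WT library, and KO replicates 1 and 3 lay far above KO replicates 2 and 4. The log2 fold change was 2.53 (SE 0.53), a 5.78-fold rise with a 95% interval of 2.63-fold to 12.7-fold (edgeR adjusted p = 0.0123). The WT level rests on few reads. In WT replicate 1 it was 20 counts, with an exact Poisson 95% interval of 1.02 to 2.58 CPM that covers counting error only. The call ended without KO replicate 3 (edgeR adjusted p = 0.0754) and by limma voom (0.0976, or 0.111 with weights on the samples), in a range from 0.000426 by DESeq2. Without both WT replicate 3 and KO replicate 1 the log2 fold change was 2.54 (edgeR adjusted p = 0.0456).

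Got2, the mitochondrial aminotransferase (ENSMUSG00000031672, chromosome 8, 95864134 to 95888547, minus strand), had 67.6, 68.7, 57.3 and 72.3 CPM in WT and 107, 85.6, 96.1 and 132 CPM in KO. The groups did not overlap and the KO mean was 1.59 times the WT mean. Its log2 fold change of 0.66 (SE 0.19, 95% interval 0.26 to 1.07) missed the threshold after adjustment (edgeR adjusted p = 0.0709), and passed by DESeq2 (adjusted p = 0.0367) alone among 23 alternatives. The annotation places another transcript, Gm45760, over exons of Got2 on the opposite strand and lists a pseudogene, Got2-ps1. With the strand setting of the counting not given in the sources used here, reads of these cannot be told apart from those of Got2.

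Within a library the ratio of Got1 to Got2 counts does not depend on the size factor. Per kilobase of exon pooled over all transcripts, Got1 stood at 0.0470, 0.122, 0.248 and 0.186 of Got2 in WT replicates 1 to 4. In KO replicates 1 to 4 it stood at 0.753, 0.438, 0.801 and 0.233. These values rest on lengths of 2539 bases for Got1 and 4824 for Got2, whose longest transcript has 2530. In read counts alone the KO ratios were 0.396, 0.230, 0.421 and 0.123. KO replicate 4, with the highest Got2 and the lowest Got1 of its group, fell below WT replicate 3, so the groups overlapped. On the log2 scale the ratio of counts averaged -3.88 ± 1.04 in WT, and -1.93 ± 0.83 in KO, a difference of 1.95. An exact two-sided permutation test gave p = 0.0571 (adjusted p = 0.171 over the 4 ratios examined), where the smallest p that 4 against 4 can give is 0.0286.

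Asns, asparagine synthetase (ENSMUSG00000029752, chromosome 6, 7675169 to 7693254, minus strand), had 27.8, 31.8, 8.67 and 25.4 CPM in WT and 174, 99.2, 146 and 64.1 CPM in KO. All KO libraries lay above all WT libraries, and WT replicate 3 lay well below the other 3. The WT mean was 23.4 ± 10.2 CPM and the KO mean 121 ± 49.0 CPM. The log2 fold change was 2.36 (SE 0.40), a 5.14-fold rise with a 95% interval of 2.82-fold to 9.36-fold (edgeR adjusted p = 0.00600). Asns was called in all 23 alternatives, with adjusted p from 4.25e-07 by DESeq2 to 0.0373 with the replicate number as a block. Without both WT replicate 3 and KO replicate 1 the log2 fold change was 1.87 (edgeR adjusted p = 0.00931), and without WT replicate 3 alone it was 2.10.

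**Figure D2:**
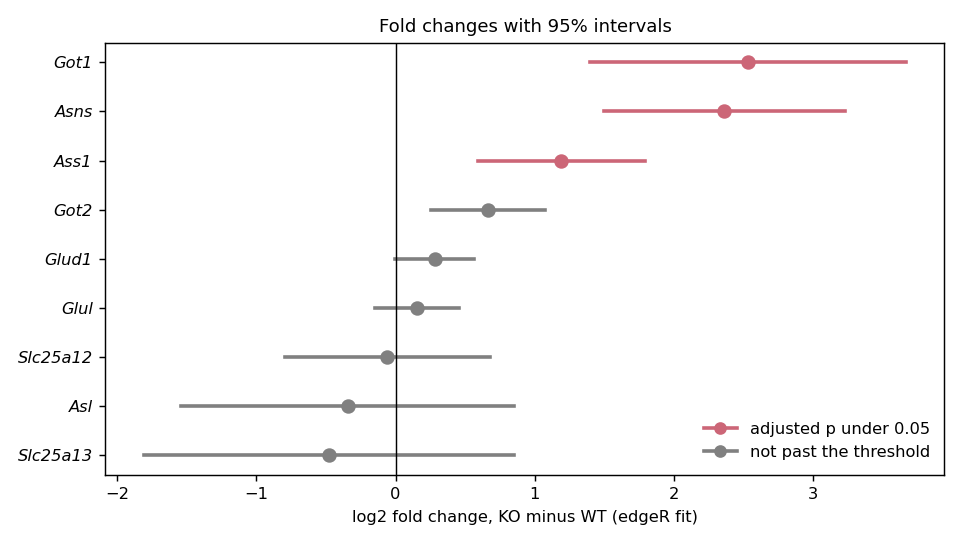
Log2 fold change of KO minus WT for the 9 genes from the edgeR fit (horizontal axis), with 95% intervals as lines and the genes past an adjusted p of 0.05 in red. Got1, Asns and Ass1 lie at 2.53, 2.36 and 1.19, and the intervals of Glud1, Glul, Slc25a12, Asl and Slc25a13 include 0.

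Neither aspartate carrier passed the test. Slc25a12 (ENSMUSG00000027010, chromosome 2, 71271063 to 71367749, minus strand) had 47.5, 41.2, 12.7 and 44.0 CPM in WT and 30.5, 31.4, 39.7 and 38.4 CPM in KO. WT replicate 3 lay far below the other WT libraries, which were all above every KO library. In the fit the log2 fold change was -0.06 (SE 0.35, 95% interval -0.80 to 0.68, edgeR adjusted p = 0.982), and without WT replicate 3 it was -0.33 (edgeR adjusted p = 0.645). Slc25a13 (ENSMUSG00000015112, chromosome 6, 6041218 to 6217173, minus strand) had 5.60, 11.5, 20.9 and 8.89 CPM in WT and 9.08, 7.98, 8.39 and 8.11 CPM in KO. Its KO values spanned little more than 1 CPM and sat inside the WT range. The log2 fold change was -0.48 (SE 0.63, 95% interval -1.81 to 0.85, edgeR adjusted p = 0.851), and without WT replicate 3 it was -0.04 (edgeR adjusted p = 0.994).

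The ratio of Slc25a13 to Slc25a12 counts was 0.118, 0.278, 1.65 and 0.202 in WT and 0.298, 0.254, 0.211 and 0.211 in KO. Only WT replicate 3 held more reads of Slc25a13 than of Slc25a12. The difference in mean log2 ratio, -0.42, became 0.36 without that library, and neither passed an exact permutation test (without the library, adjusted p = 0.429).

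Ass1, argininosuccinate synthase (ENSMUSG00000076441, chromosome 2, 31470207 to 31520672, plus strand), had 25.3, 59.6, 30.8 and 34.7 CPM in WT and 114, 90.9, 75.5 and 63.6 CPM in KO. The groups did not overlap, but WT replicate 2 came close to KO replicate 4. Ass1 had a fitted log2 fold change of 1.19 (SE 0.28), a 2.28-fold rise with a 95% interval of 1.51-fold to 3.46-fold (edgeR adjusted p = 0.0253). The call ended when any of WT replicates 1, 3 and 4 or KO replicates 1, 2 and 3 was left out (edgeR adjusted p from 0.0505 to 0.0768), without WT replicate 3 and KO replicate 1 together (log2 fold change 0.95, adjusted p = 0.148), and when the trends on GC content and transcript length were taken out of every library (log2 fold change 1.04, adjusted p = 0.0751). Within each genotype the library with the highest Ass1 had the lowest sum of alveolar type 2 markers, 3805 CPM in WT replicate 2 and 3644 CPM in KO replicate 1. With the alveolar type 2 level as a covariate Ass1 had a log2 fold change of 1.10 (edgeR adjusted p = 0.0173).

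Asl, the next enzyme (ENSMUSG00000025533, chromosome 5, 130011258 to 130029247, minus strand), had 17.1, 11.5, 16.1 and 9.38 CPM in WT and 4.68, 9.86, 9.02 and 19.0 CPM in KO. KO replicate 1 was the lowest and KO replicate 4 the highest of all 8 libraries. Its fitted log2 fold change was -0.34 (SE 0.56, 95% interval -1.54 to 0.85, edgeR adjusted p = 0.891). Ass1 outnumbered Asl in every library, by 1.47, 5.20, 1.91 and 3.70 times in read counts in WT and by 24.3, 9.21, 8.37 and 3.34 times in KO. KO replicate 4 lay inside the WT range. The log2 ratio averaged 1.44 ± 0.84 for WT and 3.15 ± 1.17 for KO, and an exact permutation test gave p = 0.0857 (adjusted p = 0.171).

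Glud1 and Glul, whose enzymes act on glutamate, were the most abundant members, and neither was called. Glud1, glutamate dehydrogenase (ENSMUSG00000021794, chromosome 14, 34310727 to 34345265, plus strand), had 300, 273, 251 and 254 CPM in WT and 319, 279, 359 and 352 CPM in KO. KO replicate 2 lay inside the WT range and the other 3 KO libraries lay above it. For Glud1 the log2 fold change was 0.28 (SE 0.13, edgeR adjusted p = 0.336), with a 95% interval of 0.998-fold to 1.48-fold. Glul, glutamine synthetase (ENSMUSG00000026473, chromosome 1, 153899944 to 153909723, plus strand), had 555, 451, 412 and 544 CPM in WT and 453, 625, 535 and 567 CPM in KO, with broad overlap. Its log2 fold change was 0.15 (SE 0.14, edgeR adjusted p = 0.751), with an interval of 0.902-fold to 1.37-fold. Exons of Glul overlap those of Teddm2 on the other strand and the microRNA gene Mir8114. The log2 ratio of Glul to Glud1 was 0.86 ± 0.18 for WT and 0.73 ± 0.30 for KO, with an exact permutation p of 0.514 (adjusted p = 0.686).

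**Figure D3:**
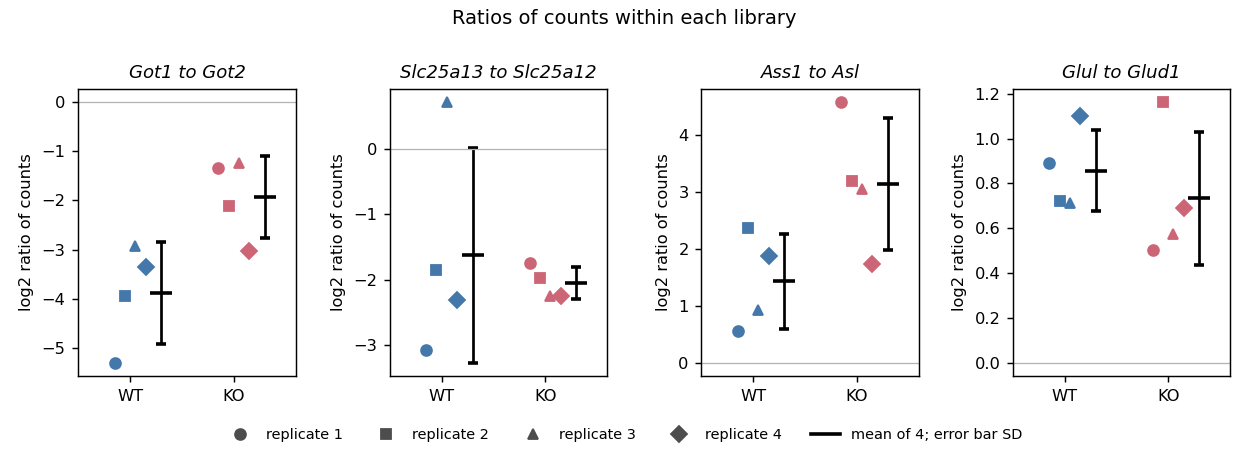
Log2 ratio of read counts within each library for 4 pairs of genes, 1 panel per pair, with marker shape for the replicate number and the mean ± SD to the right. For Got1 to Got2 and for Ass1 to Asl the KO means lie 1.95 and 1.71 above the WT means, with KO replicate 4 inside the WT range in both panels.

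Levels of different genes were compared per kilobase of annotated exon, pooled over all transcripts of a gene. For Asl this length was 4831 bases, where its longest transcript has 2413. The order was not examined with other lengths. In WT the order by mean CPM per kilobase was Glul at 148, Glud1 at 64.0, Ass1 at 15.6, Got2 at 13.8, Asns at 8.56, Slc25a12 at 4.95, Slc25a13 at 3.09, Asl at 2.80 and Got1 at 2.03. Glul, Glud1 and the pair of Ass1 and Got2 were separate from each other over the 4 libraries, Ass1 and Got2 overlapped, and from Asns down to Got1 each gene overlapped the next. In KO Asns came next after Glud1 at 44.2 CPM per kilobase, overlapping Ass1 at 35.6, which overlapped Got2 at 21.8. Got1 stood at 11.7, below Got2 and above Slc25a12 at 4.77 without overlap of either. Slc25a13 and Asl, both at about 2.2 CPM per kilobase, overlapped at the bottom. So Got1, with the lowest mean per kilobase of the 9 in WT, was above both carriers and Asl per kilobase in every KO library. In CPM not divided by length this did not hold. KO replicate 4 had 16.2 CPM of Got1 against 19.0 of Asl and 38.4 of Slc25a12. KO replicate 2 had 19.7 CPM of Got1 against 31.4 of Slc25a12.

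The 3 genes that rose varied among the KO libraries in a similar order. KO replicate 1, with the least Uqcrq at 1.59 CPM, had the most Asns, Got1 and Ass1. KO replicate 3, next in Uqcrq at 9.57 CPM, had the next highest Asns and Got1, but less Ass1 than KO replicate 2. KO replicates 2 and 4, with 15.6 and 14.0 CPM of Uqcrq, had the 2 lowest KO values of Asns and Got1, and KO replicate 4 the lowest KO value of all 3 genes. With 4 libraries this is a description, and depth, the level of other cell types and residual Uqcrq all differ between them. KO replicates 1 and 3 had the lowest and the highest KO sum of alveolar type 2 markers, 3644 and 16005 CPM. The part of depth, other cell types and residual Uqcrq in the order was not tested.

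**Figure D4:**
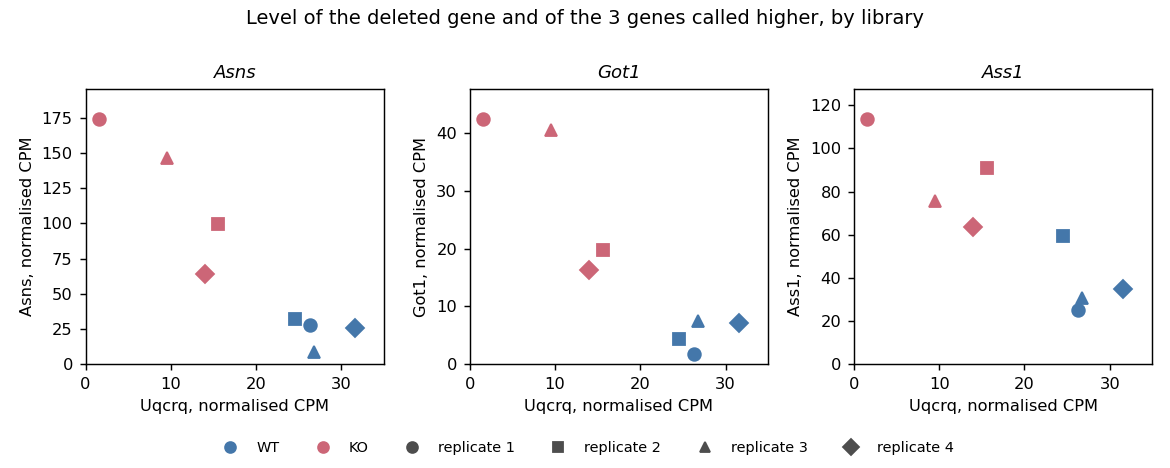
Normalised expression of Asns, Got1 and Ass1 (vertical axes, CPM) against that of the deleted gene Uqcrq (horizontal axes, CPM) in each library, WT in blue and KO in red, with marker shape for the replicate number. KO replicate 1 has the lowest Uqcrq at 1.59 CPM and the highest value in each panel, and all WT libraries lie at 24.5 CPM of Uqcrq or more with the lowest values of the 3 genes.

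The same split of KO libraries ran along Y-linked transcripts. Their summed level was 149.9 CPM or more in 2 WT and 2 KO libraries, replicates 1 and 4 of WT and 2 and 4 of KO, and 3.44 CPM or less in the other 4. Between KO and WT libraries rich in Y-linked transcripts the log2 ratio of mean CPM was 1.62 for Asns, 2.04 for Got1 and 1.36 for Ass1. Between those nearly without them it was 2.99 for Asns, 2.81 for Got1 and 1.07 for Ass1. For all 3 genes every KO library lay above every WT library, so KO had to be higher in any subset and the direction adds nothing. Each subset held 2 libraries per genotype, and the difference between subsets was not tested. With the Y-linked level as a covariate all 3 calls stood, with edgeR adjusted p of 0.00874 for Asns, 0.0109 for Got1 and 0.0135 for Ass1.

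Around the 9 genes, 41 others of aspartate, glutamate and arginine metabolism were listed, of which 30 were tested. 3 of them were called higher and 0 lower by edgeR, against 2.25% of all genes called higher. At an unadjusted p under 0.05 there were 9, all higher, against 8.69% of all genes. DESeq2 and limma voom each called the same 3 genes and 0 lower. The median log2 fold change of the 30 was 0.45, against 0.01 over all genes tested.

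Among 8 listed enzymes that use aspartate or asparagine 2 rose, Cad and Nars, where 2.25% of all genes were called higher. At an unadjusted edgeR p under 0.05, 3 of the 8 were higher and 0 lower, where 8.69% of all genes were higher. Cad uses aspartate in the first steps of pyrimidine synthesis, and Nars, the cytosolic asparaginyl-tRNA synthetase, uses asparagine. Nars averaged 96.5 ± 14.4 CPM in the WT libraries and 190 ± 36.6 CPM in the KO libraries (log2 fold change 0.98, SE 0.18, edgeR adjusted p = 0.00492). Cad averaged 43.3 ± 5.59 CPM in the WT libraries and 99.9 ± 21.3 CPM in the KO libraries (log2 fold change 1.21, SE 0.22, edgeR adjusted p = 0.00446). Both calls held in all 23 alternatives. Dars, which charges tRNA with aspartate, was at 109 ± 5.48 CPM for WT against 108 ± 11.4 CPM for KO, a log2 fold change of -0.01. It was picked out after its value was seen as the counterpart of Nars.

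Of 6 tested arginine and urea cycle partners 1 was called higher, against 2.25% of all genes. At an unadjusted edgeR p under 0.05, 2 were higher and 0 lower, against 8.69% of all genes higher. The gene called was Slc7a1, a carrier of cationic amino acids including arginine. It had 52.3 ± 21.0 CPM in the WT libraries against 126 ± 29.8 CPM in the KO libraries. Its fitted log2 fold change was 1.27 (SE 0.28, edgeR adjusted p = 0.0167). Slc7a1 lost its call when WT replicate 1 (adjusted p = 0.0613) or KO replicate 3 (0.0620) was left out, and when WT replicate 3 and KO replicate 1 both were (0.0702). The hepatic urea cycle genes Cps1 and Nags had no counts in any library, and Otc, Arg1 and Arg2 were below the filter. Nos3, the endothelial nitric oxide synthase gene, named after its value was seen, was at 151 ± 23.0 CPM for WT and 176 ± 19.3 CPM for KO, which missed the threshold (log2 fold change 0.22, SE 0.16).

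Of 4 tested shuttle partners and mitochondrial glutamate carriers 0 passed by edgeR, DESeq2 or limma voom, and 2 had an unadjusted edgeR p under 0.05, which 15.2% of all genes reached. They were Mdh2, the matrix malate dehydrogenase, at 163 ± 11.5 CPM for WT and 213 ± 11.4 CPM for KO (edgeR adjusted p = 0.148), and Slc25a22, a glutamate carrier, with 7.13 ± 3.88 and 16.4 ± 2.98 CPM (0.325). Of 8 tested genes of glutamine and glutamate supply 0 passed by any of the 3 tools and 2 had an unadjusted edgeR p under 0.05. The smallest p belonged to the glutamine carriers Slc38a2, at 208 ± 26.7 CPM for WT and 267 ± 19.8 CPM for KO (edgeR adjusted p = 0.206), and Slc1a5, with 26.3 ± 6.52 and 41.9 ± 9.27 CPM (0.270). Psat1, a transaminase of serine synthesis that uses glutamate, had the largest log2 fold change of the 30 genes, 2.14 (SE 0.92, edgeR adjusted p = 0.335), and was picked out after its value was seen. It had 35.5, 15.8, 0.149 and 28.2 CPM in WT and 94.1, 83.0, 106 and 72.7 CPM in KO, so that all KO libraries lay above all WT libraries and WT replicate 3, with 1 count, lay far below the others. Without WT replicate 3 its log2 fold change was 1.75 (edgeR adjusted p = 0.00601).

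Genes of asparagine and aspartate breakdown and plasma membrane aspartate carriers were sparse. Of 4 and 3 listed, 2 and 2 were tested, and 0 passed by any of the 3 tools, with 0 at an unadjusted p under 0.05 by edgeR. Asrgl1, an asparaginase, was at 13.8 ± 8.03 CPM for WT and 20.5 ± 6.17 CPM for KO, and Aspa, which cleaves N-acetylaspartate, 4.12 ± 3.75 and 3.69 ± 3.21 CPM. The glutamate and aspartate carriers Slc1a1 and Slc1a3 averaged 4.56 ± 3.68 and 1.80 ± 2.49 CPM for WT, against 10.9 ± 5.24 and 2.17 ± 2.15 CPM for KO.

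**Figure D5:**
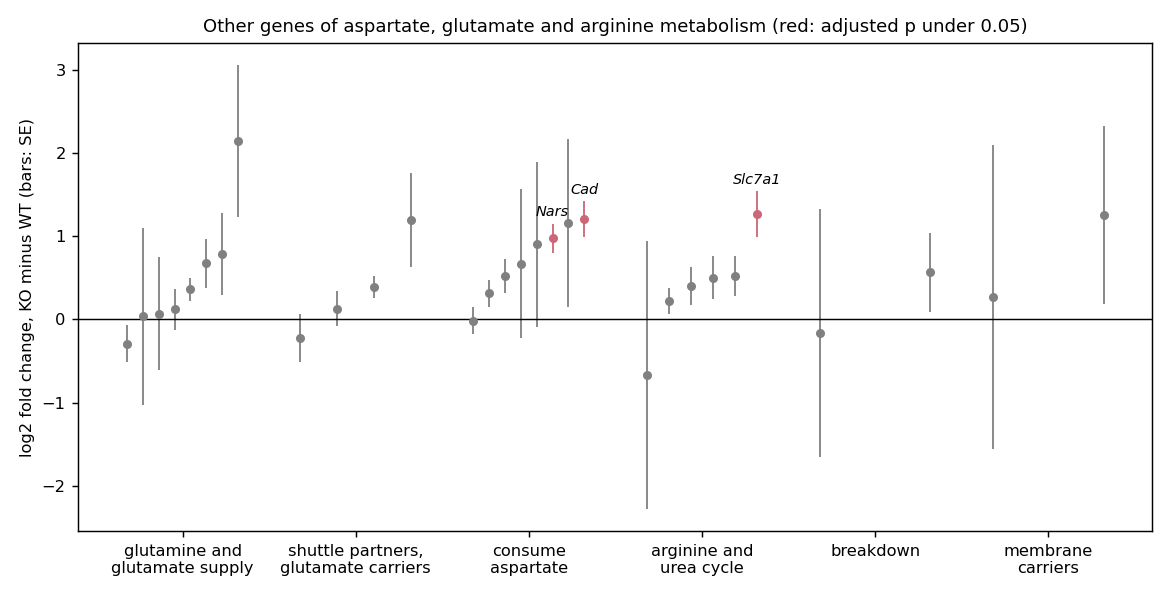
Log2 fold change of KO minus WT (vertical axis) with its SE for the 30 tested genes around the 9, grouped into 6 lists, with genes past an adjusted p of 0.05 in red and named. The 3 red points, Nars, Cad and Slc7a1, lie at 0.98, 1.21 and 1.27. Of the 30 points 25 are above 0, where 6475 of all 12689 genes tested were.

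Likeness of pattern was measured as the root mean square difference of log2 CPM over the 8 libraries, each gene centred on its mean, among 10691 other genes with at least 5 CPM on average. Nearest to Asns were Tbc1d9 (0.47), Aldh18a1, an enzyme of proline synthesis (0.48), Timp3, an inhibitor of metalloproteinases (0.50), Atp13a3 (0.50) and Arvcf (0.50). Nearest to Got1 were Tmem255a (0.37), Gm2830 (0.42), Tinagl1 (0.62), the cell cycle inhibitor gene Cdkn1a (0.65) and Timp3 (0.69). Timp3 stood in both lists of 5. Asns and Got1 differed from each other by 0.97. Of the 10691 genes 297 lay nearer to Asns than Got1 did, and 96 lay nearer to Got1 than Asns did. Genes in these lists share libraries and were tested by nothing beyond the distance.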

How the data were processed

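RNA-seq read counts of CD31-sorted lung endothelial cells were analysed, 4 WT and 4 KO libraries, with groups and replicate numbers from the sample labels. The authors deposited raw read counts per Ensembl gene, 1 column per library, and all 8 columns matched a label. The tools named, per the submitters' processing notes, are bcl2fastq, TopHat, HTSeq and edgeR, and the build is mm10. Not given in the sources used here are their versions, the annotation release, the strand setting and any filter. Symbols and coordinates came from GENCODE M21 (GRCm38) and promoters from RefSeq GRCm38.p6; 42462 of 43430 IDs had a symbol.

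Low counts were removed by filterByExpr (at least 10 counts, and 15 in total) and TMM factors were applied. KO was compared with WT by edgeR 4.0.16 (robust quasi-likelihood F test, genotype only) in R 4.3.3, adjusted over 12689 genes at 0.05. SE derive from the F statistic, and 95% intervals use its degrees of freedom. The fit was tested on simulated counts. Within-library log2 ratios of counts plus 0.5 were compared by exact two-sided permutation of the 4 against 4 libraries. Replicates differed beyond sampling noise, and counting intervals ignore PCR duplicates. Total counts of 6407924 to 13981329 set the precision. The labels do not say whether equal replicate numbers pair the samples. Deviations of same-numbered libraries correlated at -0.104 to 0.00442, which with 4 libraries a group cannot show or exclude a pairing.

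Named were all 9 members, Uqcrq, each partner gene past the threshold and otherwise the 2 smallest p per list, and the 5 genes nearest in pattern to Asns and to Got1. Members and lists were chosen with earlier results of these data known. An item withheld from this text is not reported here.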

Additional observations from a re-analysis of the deposited data

How the results depend on the processing

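The 23 alternatives were other size factors, other filters, DESeq2 1.42.0, limma 3.58.1 voom with and without sample weights, edgeR's newer dispersion option, a replicate block, covariates, length and GC correction, thinning, and leaving out libraries; those for Uqcrq and single partners were chosen after seeing the data. Got1, Got2, Asns, Ass1, Glud1 and Glul kept a positive sign in all 23, and Slc25a13 a negative one. Members called higher numbered 1 without KO replicate 3 and 1 to 3 over the leave-one-out fits. With the replicate block 3 members, 215 genes higher and 123 lower were called, and that block changed no member's call. Genes called higher numbered 450 with the newer dispersion option and 173 to 259 leaving out 1 library. Genes called lower numbered 371 by DESeq2, 283 by voom with sample weights, 297 with the newer option and 97 to 187 leaving out 1 library, among them 111 without WT replicate 2 and 105 without KO replicate 2. Slc25a12 changed sign with the replicate block (0.0654), the alveolar type 2 covariate (0.0155), the length and GC correction (0.0320), thinning (0.0177) and leaving out 1 library (-0.33 to 0.10). Asl reached 0.000891 without WT replicate 3 and KO replicate 1. The KO minus WT difference in log2 ratio of Slc25a13 to Slc25a12 ran from -0.91 to 0.36 leaving out 1 library. Aspa was 0.0872 by limma voom, 0.34 with the replicate block and -0.60 to 0.53 leaving out 1 library and Slc1a3 -0.66 to 1.90. The cause was not tested. DESeq2 gave no adjusted p for Slc25a13 and Asl. Psat1 was called without WT replicate 3, without that library and KO replicate 1 together (1.72) and with the newer dispersion option (2.01). With all libraries thinned to the smallest total the log2 fold change of Got1 was 2.32 (edgeR adjusted p = 0.0189).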
